A study of Arabidopsis thaliana with 4 samples.

Results

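SAUR genes (small auxin up RNA genes) were described in whole rosettes of Arabidopsis thaliana that were labelled 35S:∆13RAP2.12 and in rosettes of the wild type Col-0. The members were taken by locus from a list of 60 family genes, all 60 of which had a probe set among the 27826 on the arrays. All 60 also carried a SAUR name in the RefSeq gene table. That table names 80 genes as SAUR, and 17 further family genes were looked at as a separate list.

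The study used Affymetrix expression arrays on total RNA, of which 2 for 35S:∆13RAP2.12 and 2 for Col-0 were analysed here. The series' design text speaks of 3 replicates in each group, and the other arrays were not analysed here. The label 35S:∆13RAP2.12 names a shortened RAP2.12, a transcription factor of the ethylene response factor group VII, under the viral 35S promoter, which drives expression in most plant tissues. Removal of the amino terminus takes away the part that marks this factor for oxygen-dependent breakdown. Both groups had the Columbia-0 background, were 4 weeks old, grew in days of 12 h light at 22 °C with nights at 18 °C, and were harvested 10 h into the light period. The labels do not tell how many independent transgenic lines were used, or whether the 2 arrays of a group came from separate plants or pools. p-values thus measure the spread between these arrays, which may be technical. Whole rosettes hold many cell types, so fewer cells of a type and less RNA per cell cannot be told apart.

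SAUR genes form the largest family of early auxin response genes in plants. They encode small, short-lived proteins. Several of them, in particular the SAUR19 group, bind and inhibit PP2C.D phosphatases. This keeps plasma membrane proton ATPases in their active, phosphorylated state, so that the cell wall is acidified and cells expand. Their transcripts also respond to light, temperature, brassinosteroids and growth stage, and many SAUR genes lie side by side in tandem clusters of near copies.

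Levels below are RMA values on the log2 scale as deposited, and every difference is 35S:∆13RAP2.12 minus Col-0, in log2 units. RMA levels of different probe sets are not set against each other. RAP2.12 itself read 11.28 and 11.06 on the 35S:∆13RAP2.12 arrays and 11.07 and 11.16 on the Col-0 arrays, a difference of 0.06 (SE 0.13, limma adjusted p = 0.879). The targeted transcript therefore did not bear out the label, and the region of it that the probe set covers is unknown. Every direction is thus that of arrays with this label. Between arrays, Pearson's r across all probe sets was 0.993 within each group and 0.978 to 0.980 between groups. As a rough check of the labelled tissue, 10 leaf markers had a mean level of 10.90 and 10.79 on the 35S:∆13RAP2.12 arrays and 10.99 and 10.93 on the Col-0 arrays. The leaf marker CAB2 was low, at 4.96 and 4.09 on the 35S:∆13RAP2.12 arrays and 5.06 and 4.66 on the Col-0 arrays. All 7 root markers and 7 of 9 flower markers were below the 25th percentile of levels in both groups. These are readings of different probe sets, so they rank no transcripts. By limma 0 genes of these 3 lists passed, and at an unadjusted p below 0.05 only 1 flower marker did.

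In 35S:∆13RAP2.12 rosettes, 4 of the 60 SAUR genes were lower and 1 was higher than in Col-0. Those lower were SAUR63, SAUR62 and SAUR65, neighbours in one tandem cluster, and SAUR10. SAUR51 was higher. The remaining 55 did not pass. Calls were made at a limma adjusted p below 0.05 (Benjamini-Hochberg over all probe sets), which called 0.424% of all probe sets as lower and 1.74% as higher. By count, the 4 lower genes stood above the background share for that direction. For the higher direction, 1 of 60 is near the background share. In either direction 5 of 60 passed, where 2.17% of all probe sets did. SAUR63, SAUR62 and SAUR65 may be near copies, and whether their probe sets read each other's transcripts is unknown. Their calls may thus be a single signal rather than independent ones. The members were also chosen with earlier results known, and the excess over the background share was not tested. With a single array left out, no member passed without Col-0 replicate 1, without Col-0 replicate 2 or without 35S:∆13RAP2.12 replicate 1, and only SAUR63 passed without 35S:∆13RAP2.12 replicate 2.

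More members leaned downwards than passed the test. The difference was negative for 40 and positive for 20 of the 60 genes, where 16014 of the 27826 probe sets were negative. The members had a median of -0.18 and quartiles of -0.59 and 0.10. Over all probe sets the median was -0.04, with quartiles of -0.20 and 0.13. At an unadjusted p below 0.05, 17 members were lower and 5 higher, where 8.38% of all probe sets were lower and 7.85% higher. The groups did not overlap for 26 members that read lower in 35S:∆13RAP2.12 (29.1% of all probe sets) and for 10 that read higher (19.5%). A difference of at least 2-fold, with no test, was seen downwards in 11 members (1.03% of all probe sets) and upwards in 3 (2.91%). The median of the members was -0.32 without Col-0 replicate 1 and -0.11 without Col-0 replicate 2.

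The Col-0 arrays differed from each other across the family. Col-0 replicate 2 read above Col-0 replicate 1 for 49 of the 60 members, by a median of 0.30, where 50.4% of all probe sets did so, by a median of 0.0030. The 35S:∆13RAP2.12 arrays showed no such lean, with replicate 2 above replicate 1 for 32 members and a median of 0.032. The gap was widest in the AT5G18010 to AT5G18080 cluster, where the median over its 6 genes was 0.79 in Col-0. The part of this gap in the differences between groups was not tested.

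**Figure D1:**
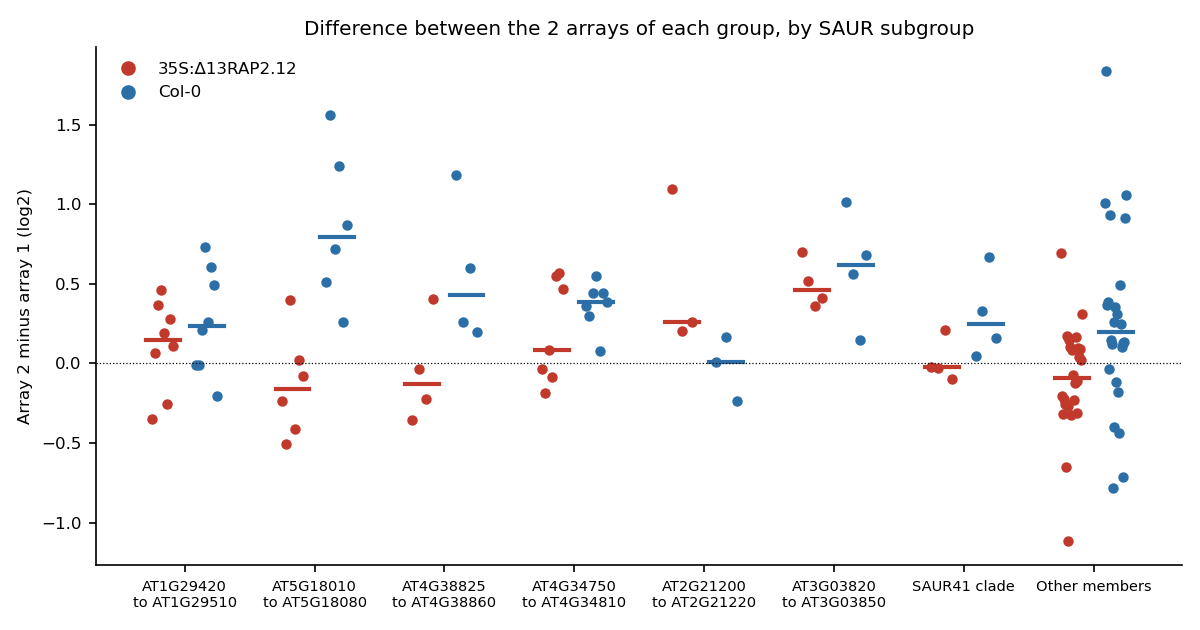
Log2 level on replicate 2 minus replicate 1 within 35S:∆13RAP2.12 (red) and within Col-0 (blue), for each SAUR gene (points) by subgroup, with the median of the subgroup (bars). In Col-0, 49 of 60 genes lie above 0, among them all 6 of AT5G18010 to AT5G18080, while 32 of 60 do so in 35S:∆13RAP2.12.

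The 32 members that lie in 6 tandem clusters had a median difference of -0.44, with 26 negative and 6 positive, and 3 of them passed as lower and 0 as higher. The other 28 members had a median of -0.0040, with 14 negative and 14 positive, and 1 passed in each direction. This is a description of the members, and the gap between these sets was not tested. For the subgroups below, counts at an unadjusted p below 0.05 stand beside 8.38% lower and 7.85% higher over all probe sets.

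The cluster from AT1G29420 to AT1G29510 on chromosome 1 held 3 of the 4 lower genes. SAUR63 (AT1G29440), which promotes elongation of hypocotyls, petals and stamen filaments, read 5.39 and 5.76 on the 35S:∆13RAP2.12 arrays and 7.48 and 7.69 on the Col-0 arrays. These groups lay far apart, with means of 5.58 ± 0.26 in 35S:∆13RAP2.12 and 7.59 ± 0.15 in Col-0 (SD, n = 2 each). SAUR63 fell by 2.01 on the log2 scale (SE 0.18, 95% interval -2.48 to -1.54, limma adjusted p = 0.0187), which is 4.02-fold.

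SAUR62 (AT1G29430), its neighbour, read 3.95 and 4.02 in 35S:∆13RAP2.12, against 5.42 and 5.41 in Col-0. The arrays of each group were nearly alike, and the groups did not overlap. SAUR62 fell by 1.43 (SE 0.11, limma adjusted p = 0.0134), or 2.69-fold. SAUR65 (AT1G29460) read 3.27 and 3.46 in 35S:∆13RAP2.12, against 4.57 and 4.82 in Col-0, again without overlap. SAUR65 fell by 1.33 (SE 0.15, limma adjusted p = 0.0348), or 2.51-fold. The SAUR62 mean in 35S:∆13RAP2.12, and the SAUR65 means in both groups, were under the 25th percentile of array levels, which was 4.82 in 35S:∆13RAP2.12 and 4.76 in Col-0. Signals this low may be close to background, which leaves the size of both decreases uncertain.

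The other 5 genes of this cluster had negative differences without passing, and not all of these were stable. SAUR64 read 6.53 and 6.99 in 35S:∆13RAP2.12 and 7.67 and 8.40 in Col-0, a difference of -1.27 (adjusted p = 0.156). SAUR66 read 7.75 and 8.02 in 35S:∆13RAP2.12 and 8.73 and 9.22 in Col-0, a difference of -1.09 (adjusted p = 0.110). For both genes the groups were apart, but the Col-0 arrays were also apart from each other. AT1G29510, which the gene table lists as SAUR67 and also as SAUR68, had -0.39, SAUR61 had -0.31 and AT1G29490 had -0.11. Over the 8 genes the median difference was -1.18, and it was between -1.38 and -0.88 with each array left out. When the prior variance was allowed to follow the level, 5 of these 8 passed as lower, SAUR64 and SAUR66 in addition. With that setting 2.58% of all probe sets were lower. Neighbours in this cluster may be near copies, so these calls may not be independent of each other.

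**Figure D2:**
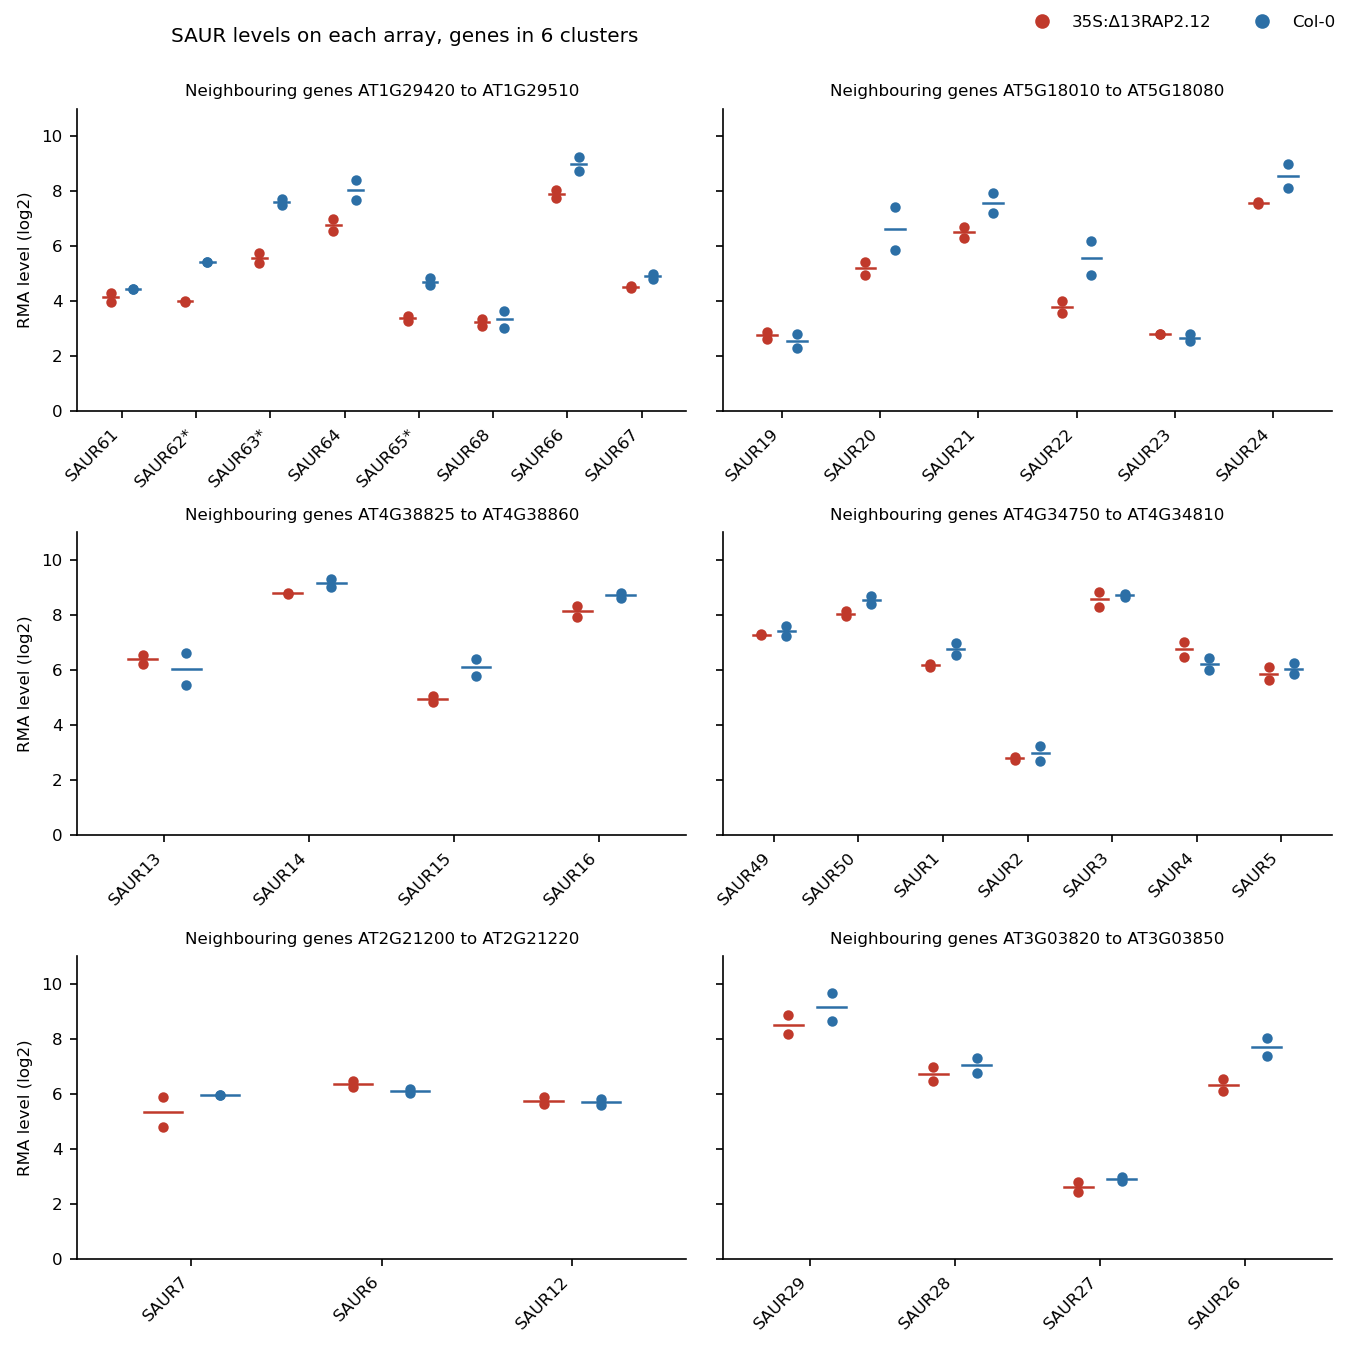
RMA level (log2) on each array (points) with the mean of 2 arrays (bars), for 35S:∆13RAP2.12 (red) and Col-0 (blue), in 6 clusters of neighbouring SAUR genes. Asterisks mark SAUR62, SAUR63 and SAUR65, which passed at a limma adjusted p below 0.05, and SAUR20, SAUR22 and SAUR24 show wide gaps between the Col-0 arrays.

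The SAUR19 group, AT5G18010 to AT5G18080 on chromosome 5, is the best studied for its part in proton pump activation and leaf and hypocotyl growth. By limma 0 of its 6 genes passed, and 3 were lower at an unadjusted p below 0.05. SAUR22 read 3.99 and 3.58 in 35S:∆13RAP2.12, against 4.95 and 6.19 in Col-0, a difference of -1.79 (SE 0.45, adjusted p = 0.167). SAUR20 read 5.43 and 4.93 in 35S:∆13RAP2.12, against 5.84 and 7.40 in Col-0, a difference of -1.44 (SE 0.55, adjusted p = 0.315). The groups were apart for both genes, but the Col-0 arrays were more than 1 log2 unit from each other.

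SAUR21 (AT5G18030) read 6.31 and 6.71 in 35S:∆13RAP2.12, against 7.22 and 7.93 in Col-0, a difference of -1.07 (adjusted p = 0.196). SAUR24 read 7.61 and 7.53 in 35S:∆13RAP2.12, against 8.11 and 8.98 in Col-0, a difference of -0.97 (adjusted p = 0.243). These pairs did not overlap either. SAUR19 and SAUR23 lay near the low end of the scale on all arrays, between 2.30 and 2.87, and differed by 0.19 (adjusted p = 0.735) and 0.13 (adjusted p = 0.708). Because they are near copies of their neighbours, the reading of a single probe set in this group is uncertain. The median of the 6 differences was -1.02, and it was -1.42 without Col-0 replicate 1 and -0.60 without Col-0 replicate 2. With the prior variance following the level, SAUR22 passed and the other 5 did not.

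In the cluster AT4G38825 to AT4G38860 0 of 4 genes passed by limma, 3 were lower at an unadjusted p below 0.05, and the median difference was -0.48. SAUR15 (AT4G38850), long used as an auxin response marker under the name SAUR-AC1, read 5.06 and 4.83 in 35S:∆13RAP2.12, against 5.80 and 6.40 in Col-0. Its groups did not overlap, and its difference was -1.15 (SE 0.24, 95% interval -1.79 to -0.52, adjusted p = 0.119). SAUR14 and SAUR16, known for their light-induced expression in opening cotyledons, had -0.38 (adjusted p = 0.302) and -0.58 (adjusted p = 0.245). SAUR14 read 8.80 and 8.77 in 35S:∆13RAP2.12, against 9.03 and 9.29 in Col-0. SAUR13 had 0.35 (adjusted p = 0.751), with Col-0 arrays at 5.44 and 6.63 on either side of the 35S:∆13RAP2.12 values of 6.56 and 6.21.

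In the cluster AT4G34750 to AT4G34810 0 of 7 genes passed by limma, 2 were lower at an unadjusted p below 0.05, and 6 differences were negative but small. SAUR1 had the lowest, -0.59 (adjusted p = 0.240), with 6.12 and 6.21 in 35S:∆13RAP2.12 and 6.53 and 6.98 in Col-0. SAUR50, also light-induced in cotyledons, had -0.50 (adjusted p = 0.248). SAUR4 had a difference of 0.52 (adjusted p = 0.432), reading 6.46 and 7.03 in 35S:∆13RAP2.12 and 6.01 and 6.45 in Col-0. SAUR49, known to promote leaf senescence, had -0.13. Its 95% interval of -0.56 to 0.30 lay within a 2-fold change, as measured by the spread between these arrays. The cluster median of -0.18 depended on the arrays, at -0.38 without Col-0 replicate 1, -0.40 with 35S:∆13RAP2.12 replicate 2 left out, and 0.0033 without Col-0 replicate 2.

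SAUR26 to SAUR29 (AT3G03820 to AT3G03850) include genes known from natural variation in the growth response of rosettes to temperature. By limma 0 of the 4 passed, and 1 was lower at an unadjusted p below 0.05. SAUR26 read 6.12 and 6.53 in 35S:∆13RAP2.12, against 7.36 and 8.05 in Col-0. The groups were apart, and the difference was -1.38 (SE 0.29, 95% interval -2.13 to -0.62, adjusted p = 0.119). SAUR29 read 8.16 and 8.87 in 35S:∆13RAP2.12, against 8.66 and 9.68 in Col-0, a difference of -0.66 (adjusted p = 0.529) with groups that overlapped. SAUR28 and SAUR27 had -0.33 and -0.28. The median over the 4 was -0.49. It was -0.89 without Col-0 replicate 1, -0.18 without Col-0 replicate 2, -0.20 without 35S:∆13RAP2.12 replicate 1 and -0.80 without 35S:∆13RAP2.12 replicate 2. The cluster had 1 call with the prior variance following the level, SAUR26.

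The 3 genes AT2G21200 to AT2G21220 showed no common direction, and limma called 0 of them, also at an unadjusted p below 0.05. SAUR7 had -0.62 (adjusted p = 0.508) with 35S:∆13RAP2.12 arrays at 4.81 and 5.90 and Col-0 arrays at 5.97 and 5.98. A single 35S:∆13RAP2.12 array thus set the difference of SAUR7, which was -0.07 without replicate 1 of that group. SAUR6 had 0.24 (adjusted p = 0.485) and SAUR12 had 0.06 (adjusted p = 0.901).

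The genes around the clusters that are not members were also described, chosen after the values of the members were seen. Of the 36 genes that lie inside the 6 clusters or as the nearest 2 on each side, 1 passed. Over all probe sets, 2.17% passed in either direction. The gene that passed, AT4G38870 beside SAUR16, rose by 2.52 (limma adjusted p = 0.00482). Another of the 36, AT3G03847, is itself a SAUR gene, SAUR73, and had -0.08. The 7 such genes at AT1G29420 to AT1G29510 ranged from -0.46 to 0.28, with a median of -0.05 and none called, beside the SAUR median of -1.18 there. The 8 at AT5G18010 to AT5G18080 ranged from -0.32 to 0.71, with a median of 0.03 and none called. The lowest difference among the 36 was -0.46, where 1.03% of all probe sets fell by 2-fold or more. With so few genes and so small a share, the absence of such a decrease tells little. Some of these genes also read near the low end of the scale, and an effect of position was not tested.

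**Figure D3:**
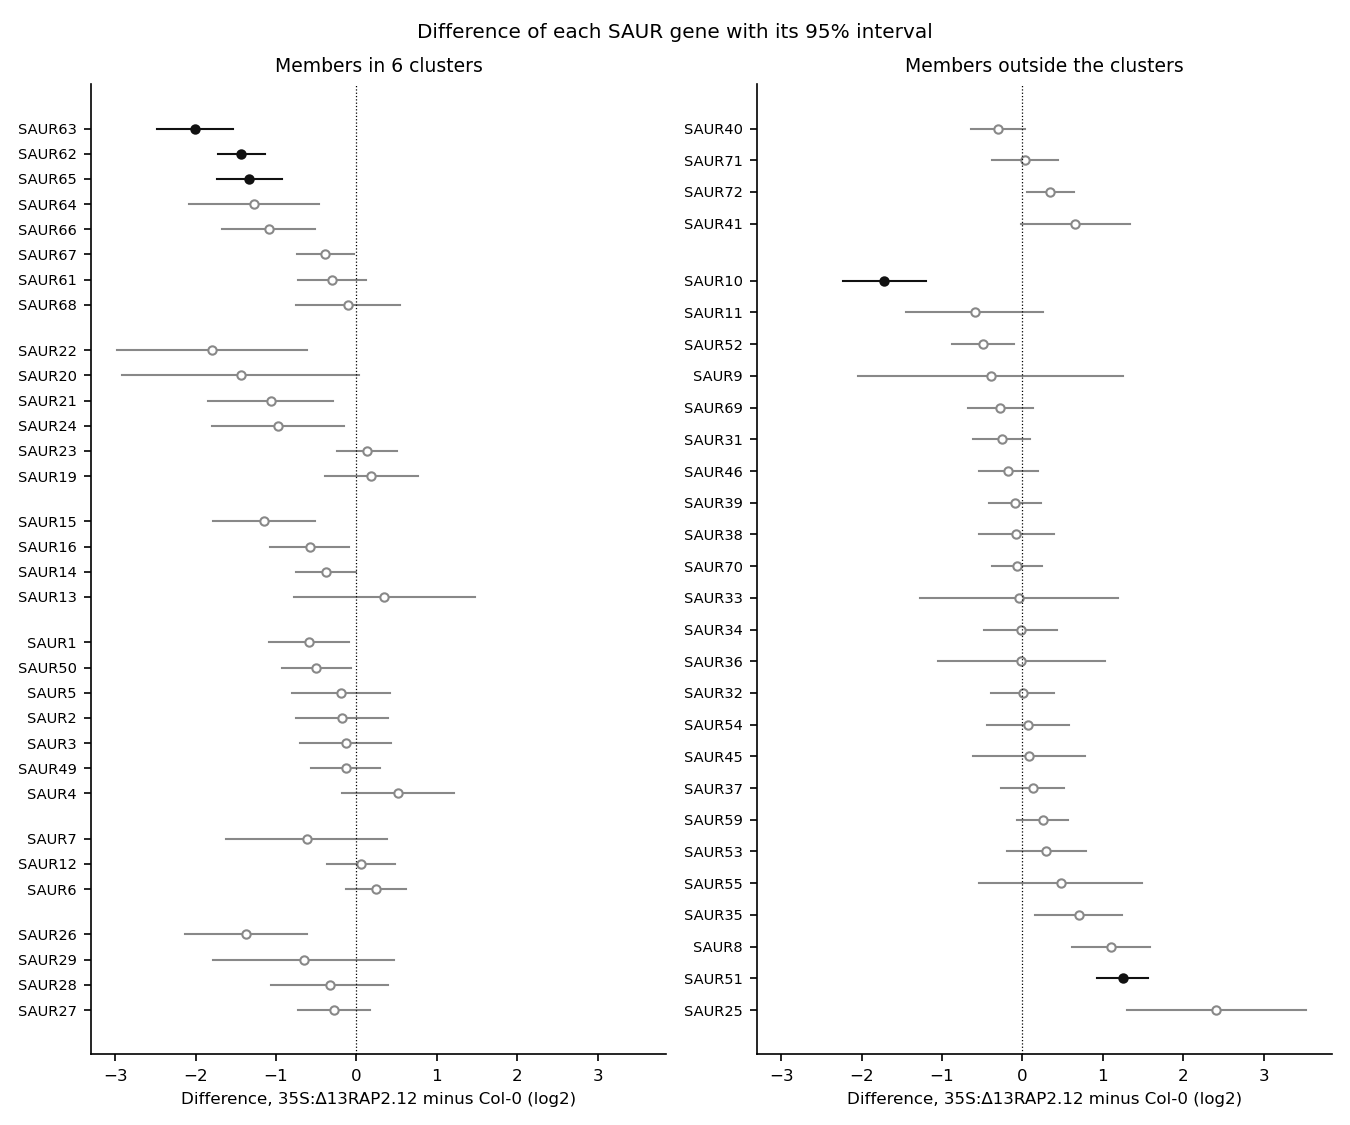
Difference of each SAUR gene, 35S:∆13RAP2.12 minus Col-0 (log2), with its 95% interval from limma, for 32 members in 6 clusters (left, clusters separated by gaps) and 28 others (right, the SAUR41 clade on top). Filled points passed at an adjusted p below 0.05: SAUR62, SAUR63, SAUR65 and SAUR10 lie below 0, and SAUR51 lies above it.

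Outside the clusters, SAUR10 was lower and SAUR51 higher. SAUR10 (AT2G18010), an auxin and brassinosteroid responsive gene of stems and branches, read 3.35 and 3.03 in 35S:∆13RAP2.12, against 4.72 and 5.09 in Col-0. The groups were apart, with means of 3.19 ± 0.23 in 35S:∆13RAP2.12 and 4.91 ± 0.26 in Col-0 (SD, n = 2 each). SAUR10 fell by 1.72 (SE 0.20, 95% interval -2.23 to -1.20, limma adjusted p = 0.0339), or 3.28-fold, to a mean below the 25th percentile of array levels, where the size of a decrease is uncertain.

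SAUR51 (AT1G75580) read 6.96 and 7.05 in 35S:∆13RAP2.12, against 5.81 and 5.69 in Col-0. Arrays within a group differed little, and the means were 7.00 ± 0.060 in 35S:∆13RAP2.12 and 5.75 ± 0.084 in Col-0 (SD, n = 2 each). SAUR51 rose by 1.25 (SE 0.12, 95% interval 0.93 to 1.57, limma adjusted p = 0.0216), or 2.38-fold. Its neighbour SAUR52 had -0.49 (adjusted p = 0.217), with 5.28 and 5.05 in 35S:∆13RAP2.12 and 5.74 and 5.57 in Col-0. These adjacent genes thus lay on opposite sides of 0, although the difference between them was not tested.

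SAUR25 and SAUR8 were at least 2-fold higher without passing. SAUR25 had the largest positive difference of all 60 at 2.41 (SE 0.42, 95% interval 1.30 to 3.53, adjusted p = 0.0842). It read 4.94 and 5.64 in 35S:∆13RAP2.12, against 2.37 and 3.38 in Col-0, where it was below the 25th percentile of levels. SAUR8 read 6.39 and 6.17 in 35S:∆13RAP2.12, against 4.99 and 5.37 in Col-0, a difference of 1.10 (adjusted p = 0.0777). For both genes the groups did not overlap. Both passed with the prior variance following the level, where 3.74% of all probe sets were higher.

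The SAUR41 clade, known from cell expansion in hypocotyls, had 0 of 4 genes called by limma, with 1 higher at an unadjusted p below 0.05. SAUR41 had the largest difference, 0.66 (adjusted p = 0.320), with 6.97 and 7.18 in 35S:∆13RAP2.12 and 6.08 and 6.75 in Col-0. SAUR72 had 0.35 with both 35S:∆13RAP2.12 arrays, at 7.73 and 7.71, above both Col-0 arrays, at 7.35 and 7.39 (adjusted p = 0.241). SAUR71 had 0.03, and SAUR40, near the low end of the scale, had -0.30. The clade median was 0.19, at 0.10 without Col-0 replicate 1 and 0.29 without Col-0 replicate 2.

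SAUR36, also called SAG201 for its rise in ageing leaves, which it promotes, had a difference of -0.01 (95% interval -1.05 to 1.03). Its 35S:∆13RAP2.12 arrays were at 5.83 and 5.18 and its Col-0 arrays at 5.05 and 5.99, so that the groups overlapped. SAUR32, which affects the apical hook of seedlings when overexpressed, read 10.78 and 10.51 in 35S:∆13RAP2.12 and 10.58 and 10.70 in Col-0. Its difference of 0.01 had a 95% interval of -0.38 to 0.40. SAUR31 read 10.11 and 10.28 in 35S:∆13RAP2.12 and 10.38 and 10.53 in Col-0, with a difference of -0.26 (adjusted p = 0.440).

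The remaining 16 members outside the clusters had differences between -0.59 for SAUR11 and 0.70 for SAUR35, and none of them passed. SAUR35 read 6.69 and 6.86 in 35S:∆13RAP2.12, against 5.83 and 6.32 in Col-0, without overlap (adjusted p = 0.211). SAUR9 had the widest gap between arrays, with 5.42 and 5.21 in 35S:∆13RAP2.12 and 4.79 and 6.63 in Col-0, and a difference of -0.40 (95% interval -2.05 to 1.26).

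For 31 of the 60 members the 95% interval lay within a 2-fold change in both directions, where 22994 of the 27826 probe sets did so. In both groups, 18 members were below the 25th percentile of levels, where 6498 of the 27826 probe sets were. Among the 18 were SAUR19, SAUR23, SAUR27, SAUR40 and SAUR65. The 17 further SAUR genes of the family had 0 calls by limma. At an unadjusted p below 0.05, 2 of them were lower and 2 higher (8.38% and 7.85% of all probe sets). Their median was -0.02, with 9 negative and 8 positive differences. SAUR76 had the smallest p among them, at -0.68 (adjusted p = 0.0755), reading 6.23 and 6.27 in 35S:∆13RAP2.12 and 6.96 and 6.90 in Col-0.

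Other genes of the auxin pathway are given by list, beside 0.424% of all probe sets called lower and 1.74% called higher. Among 29 Aux/IAA genes, whose products repress auxin responses and which are themselves induced by auxin, 1 was lower and 0 higher. IAA7 (AT3G23050) read 9.03 and 9.26 in 35S:∆13RAP2.12, against 10.35 and 10.15 in Col-0, and fell by 1.11 (SE 0.15, limma adjusted p = 0.0498), close to the threshold. The IAA7 call was lost with robust eBayes, with array weights and with any array left out, and its adjusted p ranged from 0.00124 to 0.213 over the alternatives by limma. The list leaned downwards, with 25 negative and 4 positive differences (16014 of 27826 negative over all probe sets) and a median of -0.33. For 18 genes the groups did not overlap with 35S:∆13RAP2.12 lower, where 29.1% of all probe sets did so. IAA19 had the largest difference of the list at -2.18 (adjusted p = 0.103), with 3.73 and 4.91 in 35S:∆13RAP2.12 against 6.34 and 6.66 in Col-0. IAA19 was named after its values were seen.

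GH3 enzymes, which join auxin to amino acids and so lower its free level, leaned the other way. Of 8 genes 0 passed by limma, and 3 were higher at an unadjusted p below 0.05 (7.85% of all probe sets). In 7 of them the difference was positive (11812 of 27826 over all probe sets). The median was 0.42, at 0.10 without replicate 1 and 0.69 without replicate 2 of 35S:∆13RAP2.12. GH3.5, listed as WES1, had the smallest p, with a difference of 0.81 (adjusted p = 0.128). Among 21 auxin receptors and ARF transcription factors limma called 0, also at an unadjusted p below 0.05, and the median was -0.07. All 21 intervals lay within a 2-fold change, where 22994 of the 27826 probe sets did so. The receptor gene AFB1, listed as GRH1, had the smallest p there, at -0.36 (adjusted p = 0.338).

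Of 27 genes of auxin synthesis and transport, 1 was lower and 0 higher (0.424% and 1.74% of all probe sets). At an unadjusted p below 0.05, 8 were lower and 3 higher (8.38% and 7.85% of all probe sets). The list had 16 negative and 11 positive differences. YUC2, a flavin monooxygenase of auxin synthesis, read 5.10 and 5.03 in 35S:∆13RAP2.12, against 6.35 and 6.54 in Col-0, and fell by 1.38 (SE 0.13, limma adjusted p = 0.0206), or 2.60-fold. The median of this list was -0.16 and depended on the arrays, from -0.24 without 35S:∆13RAP2.12 replicate 2 to 0.02 without Col-0 replicate 2.

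The biochemical partners of SAUR proteins gave 1 call, which was lower, where 0.424% of all probe sets were lower. Of 9 PP2C.D phosphatases, AT5G02760, listed as APD7, was lower. It read 6.54 and 6.37 in 35S:∆13RAP2.12, against 8.52 and 8.77 in Col-0, with groups far apart. AT5G02760 fell by 2.19 (SE 0.15, limma adjusted p = 0.00877), or 4.57-fold. The other 8 did not pass, and the list had a median of -0.15. Among 11 plasma membrane proton ATPases 0 passed by limma, and the median was 0.0055. At an unadjusted p below 0.05, 1 was lower and 1 higher (8.38% and 7.85% of all probe sets). AHA7, listed as HA7, had the smallest p, at 0.63 (adjusted p = 0.0911).

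Among 9 PIF factors and shade genes, 1 was lower and 0 higher (0.424% and 1.74% of all probe sets). ATHB-2, listed as HB-2, a shade-induced homeobox gene, read 6.94 and 6.78 in 35S:∆13RAP2.12, against 8.13 and 8.11 in Col-0. It fell by 1.26 (SE 0.12, limma adjusted p = 0.0223), or 2.39-fold. The list had 8 negative differences and a median of -0.24, at -0.46 without Col-0 replicate 1. The calls on YUC2 and ATHB-2 were lost with any of the 4 arrays left out. That on AT5G02760 was lost without Col-0 replicate 1 (adjusted p = 0.104) and without Col-0 replicate 2 (adjusted p = 0.107), and it held without either 35S:∆13RAP2.12 array.

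**Figure D4:**
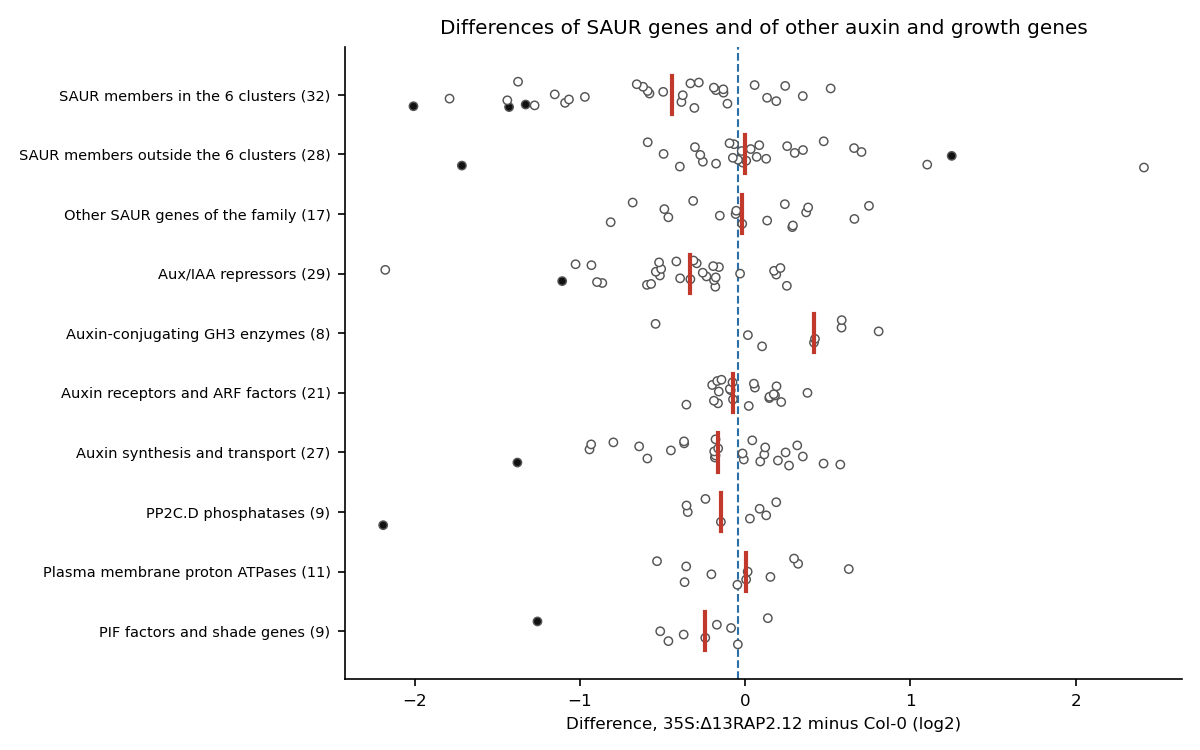
Difference of each gene, 35S:∆13RAP2.12 minus Col-0 (log2), in SAUR sets and in other auxin and growth lists, with the number of genes in brackets. Filled points passed at a limma adjusted p below 0.05, red bars are list medians, and the dashed line is the median of all probe sets at -0.04. Clustered SAUR genes have a median of -0.44, Aux/IAA genes -0.33 and GH3 enzymes 0.42.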

How the data were processed

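The values that the authors deposited are log2 levels made with RMA, which the submitters' processing notes name; the log2 scale was read from the range of the values. RMA includes background correction and quantile normalization. Its version and the definition of the probe sets were not found in the labels. The 4 columns of the table entered the main test. No detection calls, raw intensities or probe sequences were used, so signal over background and cross-hybridisation between near copies are unknown.

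No further normalization or filter was applied. Groups came from the sample titles. Differences were fitted with lmFit and eBayes of limma 3.58.1 (R 4.3.3; no covariates, two-sided) over all 27826 probe sets with Benjamini-Hochberg adjustment, and called at an adjusted p below 0.05. The fit had 2 residual and 2.55 prior degrees of freedom. Errors beside differences are moderated standard errors. The fit was tested on simulated data.

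The members and lists were chosen with earlier results of these data known, so lists are described by counts and medians with no test. Lists were 6 SAUR clusters, the SAUR41 clade, further SAUR genes, Aux/IAA, GH3, auxin receptors and ARF, auxin synthesis and transport, PP2C.D, proton ATPases, PIF and shade genes, and leaf, flower and root markers. The named genes were RAP2.12, called members, the members with the largest difference in each direction in each SAUR subgroup, the 5 with the highest Col-0 level, all of AT5G18010 to AT5G18080 and, of every other list, up to 3 called genes in each direction or the gene with the smallest p. Further members are given to account for their subgroups. Names came from the RefSeq gene table of TAIR10.1, which held 27241 of the loci and not 585. No sequences are shown. Alternatives changed 1 choice at a time: a replicate block, array weights, a second quantile normalization, centring on medians, removal of probe sets below the 25th percentile, a trended or robust prior, omission of each array, and thresholds of 0.01 and 0.10. Figures were drawn with matplotlib 3.10.9.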

Additional observations from a re-analysis of the deposited data

How the results depend on the processing

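The 5 calls among the members (4 lower, 1 higher) were the same genes with quantile normalization again, median centring, robust eBayes and array weights. With the prior variance following the level, 8 members were lower and 3 higher (all probe sets lower 719, all probe sets higher 1040). With the filter on low levels, which kept 37 members, 1 was lower and 2 higher (256 lower and 646 higher of the 20869 probe sets tested). SAUR62, SAUR65 and SAUR10 were left out by that filter. At an adjusted p below 0.01, 0 members were lower and 0 higher (10 and 150 of all probe sets), and at 0.10, 3 were higher (374 lower and 829 higher over all probe sets). With each array left out, 0 to 1 members were lower and 0 were higher, and all probe sets gave 0 to 29 lower and 0 to 286 higher. These fits have fewer samples. The median of the members ranged from -0.32 to -0.11 over all alternatives. Whether replicate numbers pair the samples is unknown. Deviations from the group means correlated at 0.035 between same-numbered arrays, over all probe sets. So low a value shows no strong shared shift, but it cannot show whether these arrays were handled together. With the replicate number as a block, 5 members were lower and 2 higher (82 and 433 of all probe sets), SAUR10 was lost, and SAUR64, SAUR26 and SAUR25 were gained. IAA7 (AT3G23050) was also lost with the block (adjusted p = 0.0832). No named gene that passed turned its direction in these alternatives. The number of arrays limits the precision, and signal over background is unknown. At the low-level readings of SAUR62, SAUR65 and SAUR10 it limits the size of the change.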

Other observations

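Among flower markers, which were outside the comparisons of the report, AG had a difference of -1.10 (limma adjusted p = 0.0690). It read 5.22 and 5.45 in 35S:∆13RAP2.12, against 6.27 and 6.60 in Col-0, and the groups did not overlap. The mean level of the 9 flower markers was 4.29 and 4.28 in 35S:∆13RAP2.12 and 4.41 and 4.55 in Col-0. The mean level of the 7 root markers was 3.41 and 3.66 in 35S:∆13RAP2.12 and 3.54 and 3.54 in Col-0, and PRP1 had the smallest p there, at 0.33 (adjusted p = 0.443). Among leaf markers RBCS2B had the smallest p, at -0.16 (adjusted p = 0.552).

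Several carriers of auxin transport read lower in 35S:∆13RAP2.12 without passing, and they were named after their values were seen. PIN4, an efflux carrier, read 9.61 and 9.45 in 35S:∆13RAP2.12, against 10.55 and 10.40 in Col-0, a difference of -0.94 (limma adjusted p = 0.0538). AUX1, an influx carrier, read 9.04 and 9.21 in 35S:∆13RAP2.12, against 9.96 and 10.16 in Col-0, a difference of -0.93 (limma adjusted p = 0.0610). The groups did not overlap for either gene. LAX2, also an influx carrier, had -0.80 (limma adjusted p = 0.0784), and PIN7, an efflux carrier, had -0.64 (limma adjusted p = 0.0823). With the prior variance following the level, 6 of the 27 genes of auxin synthesis and transport and 6 of the 29 Aux/IAA genes were lower, and 0 of either list were higher. That setting called 2.58% of all probe sets as lower and 3.74% as higher.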
